A study of Rattus norvegicus with 2 samples.

Results

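The circadian clock genes considered here are 10 named genes: the E-box repressors Bhlhe40 and Bhlhe41, the period genes Per1, Per2 and Per3, the cryptochrome Cry1, the nuclear receptors Nr1d1 and Nr1d2, the activator Dbp, and Arntl, whose current symbol is Bmal1. They were taken by gene name from all gene probes of an Agilent rat oligonucleotide array, which gave 14 probes for the 10 genes, out of 41012 probes for 33719 gene names in all. Livers of rats on a choline-deficient diet held 2.23-fold more Bhlhe41 RNA and 1.35-fold more Per2 RNA than livers of rats on a control diet. The other 7 measured genes did not pass the test, and Per3 was not well above background in either diet. Each of the 2 folds rests on 1 probe read on 2 arrays. The authors' deposited ratios gave 3.89-fold for Bhlhe41 and 1.58-fold for Per2. On those ratios with a constant prior, and with median centring, neither Bhlhe41 nor Per2 passed in limma.

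The tested livers came from Wister rats (the spelling of the labels) of 7 weeks fed a choline-deficient diet for 10 days, and the comparison livers from rats of the same strain and age fed a control diet for that time. No genotype or further agent is named for either diet. Total RNA of both diets was hybridised together on each of 2 arrays. Cy5 marked the choline-deficient and Cy3 the control RNA on array 1, and the dyes were swapped on array 2; both arrays sat on 1 slide and were read in 1 scan. The titles name 4 choline-deficient rats, but the labels do not say how many rats each array holds, whether their RNA was pooled, whether both arrays carry the same extracts, or at what time of day the livers were taken. A limma p-value here reflects no more than how far the 2 arrays differ, judged almost wholly from other genes. That may be a technical spread.

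The mammalian clock is a transcriptional feedback loop. BMAL1 and CLOCK bind E-box sequences and switch on the Per and Cry genes, whose proteins return to the nucleus and inhibit BMAL1 and CLOCK. The same activators drive Nr1d1 and Nr1d2, which encode REV-ERB repressors of Arntl, and Dbp, an activator of genes with D-box sequences. Bhlhe40 and Bhlhe41, also called Dec1 and Dec2, encode related repressors that compete at E-boxes. In liver the loop runs in nearly every hepatocyte and is set by feeding, glucocorticoids and body temperature.

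Between 53.5% and 63.2% of the 43379 gene spots were well above background in each diet and array, and 0 gene spots were saturated. Of 18198 genes tested with limma, 795 were called higher and 773 lower with the choline-deficient diet, at a threshold of 0.05 on the p adjusted after Benjamini and Hochberg. All 8 hepatocyte markers examined, among them Alb, Ttr and Cyp2e1, were well above background in both diets on both arrays, whereas 4 of 7 lymphocyte markers were not tested for want of signal. The median log2 ratio of the hepatocyte markers was 0.24 on array 1 and -0.56 on array 2, so the arrays disagreed in sign for that list. In these bulk samples, fewer cells of a type and less RNA per cell cannot be told apart.

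Bhlhe41 encodes a basic helix-loop-helix repressor and had 2 probes, shown here because they gave different readings.
A_43_P15357: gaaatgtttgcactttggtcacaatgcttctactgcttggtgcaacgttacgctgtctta
A_44_P463858: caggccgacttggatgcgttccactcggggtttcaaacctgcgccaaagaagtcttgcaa

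Both lie on the unplaced part of chromosome 4 in build rn4, which the array files use. A_43_P15357 spans chr4_random:1955459-1955518 and A_44_P463858 spans chr4_random:1953325-1953384, 2134 bases away. No rn4 gene models were used here, so exon or UTR positions are not given. The probes were designed on predicted transcripts whose accessions match no current symbol in the reference table, and the name Bhlhe41 is that of the array file.

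At A_43_P15357, the raw mean signal of the choline-deficient RNA was 552.8 on array 1, in Cy5, and 333.1 on array 2, in Cy3. The control RNA gave 136.4 on array 1, in Cy3, and 219.9 on array 2, in Cy5, over local backgrounds of 45 to 50.5. Within each dye, the choline-deficient RNA was thus the brighter of the pair. On the normalized log2 scale, which follows background correction, loess and scaling between arrays, levels were 8.79 and 8.69 in choline-deficient liver, against 7.73 and 7.44 in control liver. These levels did not overlap between diets. They derive from the same ratios, so this adds little to the ratios, and the share of all genes without overlap was not counted. The log2 ratio of choline-deficient over control was 1.07 on array 1 and 1.25 on array 2, a mean of 1.16 ± 0.13 (SD, n = 2 arrays). This is 2.23-fold, with a 95% interval from 1.94-fold to 2.57-fold (limma adjusted p = 1.83e-14). By mean log2 ratio, Bhlhe41 stood at rank 29 from the highest of 18198 genes.

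The size of this change differed between ways of processing. With an offset of 16 in place of 50, Bhlhe41 was 2.52-fold higher, and by the ratio in the authors' deposited table it was 3.89-fold higher. The deposited values, as log2 of choline-deficient over control, were 2.07 on array 1 and 1.85 on array 2. The authors' deposited p within each array was 8.60e-13 on array 1 and 2.45e-11 on array 2. The limma call was lost on the deposited ratio with a constant prior (adjusted p = 0.193), a setting in which 0 of all genes passed and 2122 had an unadjusted p under 0.05. The second probe, A_44_P463858, was well above background in neither diet on either array, with raw signals of 86.44 and 120.6 for choline-deficient and 92.29 and 115.5 for control RNA, and no fold is drawn from it.

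The paralog Bhlhe40, a repressor of the same E-boxes that also responds to hypoxia, was not called. Its probe lies at chr4:144145007-144145066 in rn4. Normalized log2 levels were 9.39 and 9.54 in choline-deficient liver, against 9.52 and 9.53 in control liver, so the groups overlapped. The mean log2 ratio was -0.060 ± 0.10 (SD, n = 2 arrays; limma adjusted p = 0.902), with a 95% interval from 0.834-fold to 1.10-fold. The log2 ratio of Bhlhe41 exceeded that of Bhlhe40 by 1.20 on array 1 and by 1.24 on array 2, a difference of ratios larger than the SD of either gene.

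Of the period genes, which encode the inhibitors that pair with cryptochromes, Per2 rose. Its probe, shown because the second call of the list rests on it alone, lies on the minus strand at chr9:90645610-90645669 in rn4.
A_42_P708593: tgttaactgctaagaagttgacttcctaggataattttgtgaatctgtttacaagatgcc

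Raw signals for Per2 were 396.0 and 281.6 for choline-deficient RNA, against 170.0 and 311.4 for control RNA, on arrays 1 and 2. Normalized log2 levels were 8.36 and 8.43 in choline-deficient liver, against 7.95 and 7.98 in control liver. These normalized levels did not overlap between diets, although the raw signals, before dye correction, did. As for Bhlhe41, the levels derive from the same ratios, and the share of all genes without overlap was not counted. On each array the choline-deficient normalized level was the higher. The log2 ratio was 0.41 on array 1 and 0.45 on array 2, with a mean of 0.43 ± 0.029 (SD, n = 2 arrays). This is 1.35-fold, with a 95% interval from 1.17-fold to 1.55-fold (limma adjusted p = 0.00184). The authors' deposited table gave 1.58-fold on average, where the limma call was again lost with a constant prior (adjusted p = 0.272).

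Per1, a period gene induced directly by glucocorticoids and cAMP, did not pass. Its normalized log2 levels were 7.56 and 7.37 in choline-deficient liver, against 7.37 and 7.44 in control liver. The log2 ratio was 0.20 on array 1 and -0.067 on array 2, so that the arrays gave opposite signs, and the mean was 0.066 ± 0.19 (SD, n = 2 arrays; limma adjusted p = 0.887). The Per1 probe is listed across 585 bases of rn4, chr10:55867840-55868424, longer than its 60 bases. By the authors' deposited table the log2 ratios of Per1 were 0.61 on array 1 and -0.25 on array 2, again of opposite sign. The log2 ratio of Per2 exceeded that of Per1 by 0.21 on array 1 and by 0.52 on array 2.

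Per3, the period gene least needed for the rhythm itself, was measured by 3 probes of which none was well above background in either diet, and it was left out of the test. Raw signals ran from 72.24 to 119.1 for choline-deficient RNA and from 75.05 to 119.2 for control RNA. Its 2 probes designed on the same transcript share a run of 22 bases, marked in capitals below, and are not independent readings.
A_43_P16143: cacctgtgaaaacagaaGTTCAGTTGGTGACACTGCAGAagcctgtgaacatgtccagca
A_44_P196198: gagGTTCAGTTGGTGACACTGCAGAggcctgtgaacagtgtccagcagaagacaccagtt

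Cry1, the repressor that holds BMAL1 and CLOCK on DNA late in the cycle, had the smallest mean log2 ratio in size of the 9 genes tested. Levels on the log2 scale were 8.68 and 8.58 in choline-deficient liver, against 8.70 and 8.63 in control liver. The mean log2 ratio was -0.028 ± 0.023 (SD, n = 2 arrays; limma adjusted p = 0.967), and the 95% interval reached from 0.852-fold to 1.13-fold.

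**Figure D1:**
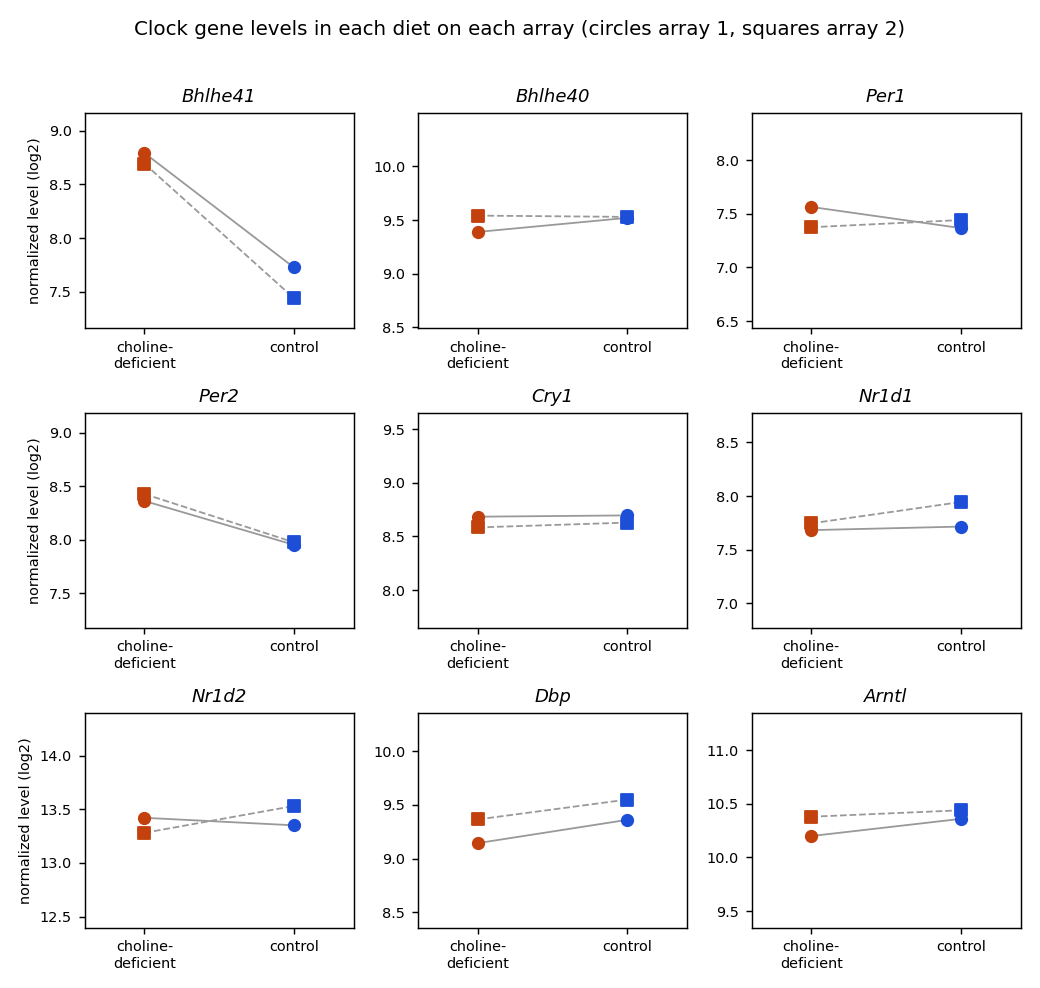
Normalized log2 level (vertical axis, 2 log2 units in every panel) of 9 clock genes in choline-deficient liver (orange, left) and control liver (blue, right); circles are array 1, squares array 2, and a line joins the diets of 1 array. Choline-deficient liver is higher on both arrays for Bhlhe41 (8.79 and 8.69 against 7.73 and 7.44) and Per2 (8.36 and 8.43 against 7.95 and 7.98). It is lower on both for Cry1, Nr1d1, Dbp and Arntl, and the arrays slope opposite ways for Per1, Nr1d2 and Bhlhe40.

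The REV-ERB receptors, repressors of Arntl and Npas2, did not pass the test. Nr1d1, at a probe listed on chr10:87543165-87543519 of rn4, had log2 levels of 7.68 and 7.74 in choline-deficient liver, against 7.72 and 7.94 in control liver. Its mean log2 ratio was -0.12 ± 0.12 (SD, n = 2 arrays; limma adjusted p = 0.697), lower on both arrays (-0.033 and -0.20). The authors' deposited table gave log2 ratios for Nr1d1 of the same sign and larger in size, -0.17 on array 1 and -0.41 on array 2, and with them it did not pass in limma (adjusted p = 0.498). Nr1d2 had 2 probes for which the array file gives no position. The brighter gave log2 levels of 13.42 and 13.28 in choline-deficient liver, against 13.35 and 13.53 in control liver, with opposite signs on the arrays (0.071 and -0.25) and a mean of -0.089 ± 0.23 (limma adjusted p = 0.823). The dimmer probe, well above background in choline-deficient liver on 1 of the arrays and in control liver on both, was lower on each, with a mean log2 ratio of -0.16 ± 0.011 (SD, n = 2 arrays). At this probe the authors' deposited table gave log2 ratios of -0.20 on array 1 and -1.12 on array 2, which lie much further apart.

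Dbp, the D-box activator whose transcript is among the most strongly cycling in liver, had the lowest mean log2 ratio of the 9 genes. Its probe lies at chr1:96178020-96178079 in rn4. Log2 levels were 9.14 and 9.37 in choline-deficient liver, against 9.36 and 9.55 in control liver. On each array the choline-deficient level was the lower, although the ranges of the groups overlap across arrays. The mean log2 ratio was -0.20 ± 0.023 (SD, n = 2 arrays; limma adjusted p = 0.290), with a 95% interval from 0.756-fold to 1.00-fold, and of the alternatives run it passed only with the ratio of the authors' deposited table under a limma prior with an intensity trend (-0.265, adjusted p = 0.0464).

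Arntl encodes BMAL1, the partner of CLOCK in the activating arm. Its probe lies at chr1:171161969-171162028 in rn4. Log2 levels were 10.20 and 10.38 in choline-deficient liver, against 10.36 and 10.44 in control liver, and the groups overlapped. The mean log2 ratio was -0.11 ± 0.070 (SD, n = 2 arrays; limma adjusted p = 0.742), with a 95% interval from 0.807-fold to 1.07-fold.

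**Figure D2:**
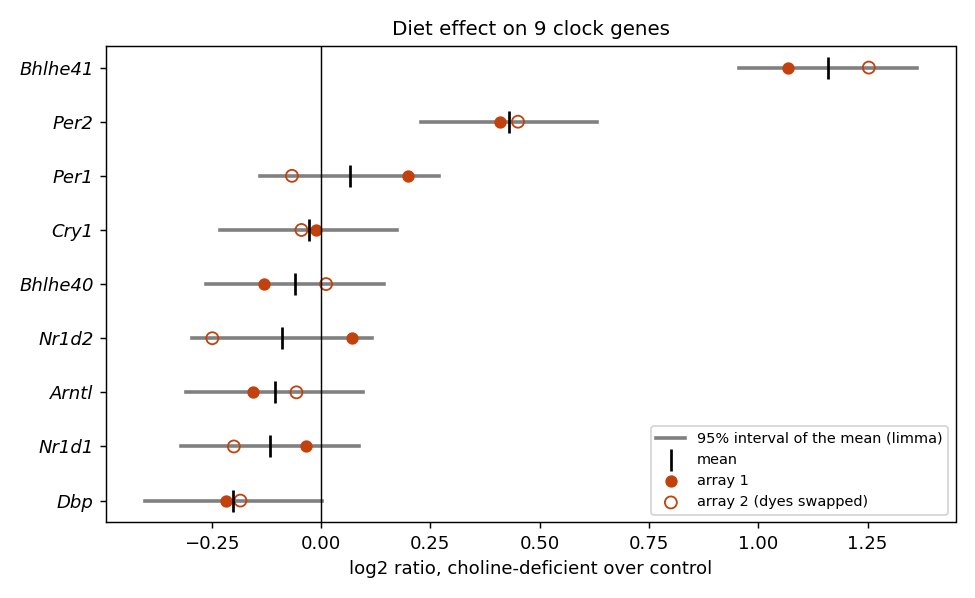
Log2 ratio of choline-deficient over control (horizontal axis) for 9 clock genes, ordered by mean; filled and open circles are arrays 1 and 2, ticks the mean, and bars limma's 95% interval. The intervals of Bhlhe41 and Per2 lie above 0, and the remaining 7 include 0.

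Ordered by mean log2 ratio with its sign, from highest to lowest, the genes ran from Bhlhe41 through Per2, Per1, Cry1, Bhlhe40, Nr1d2, Arntl and Nr1d1 to Dbp. Bhlhe41 exceeded Per2, and Per2 exceeded Per1, by more than the SD of either gene. From Per1 down, no neighbouring pair differed by more than the larger SD of the pair. The median log2 ratio of the 9 genes was -0.060, against 0.00025 over all genes tested, while their mean was 0.12 and so differed from the median in sign. Of the 9 genes, 2 were called higher, against 4.37% of all genes tested, and 0 were called lower, against 4.25%. In either direction this is 2 of 9, against 8.62%. An unadjusted limma p under 0.05 was also found for 2 of 9, against 3194 of 18198 genes tested. By size alone, 1 of 9 was at least 1.5-fold higher on each array, against 0.852% of all genes, and 0 were at least 1.5-fold lower on each, against 0.495%. The sign was the same on both arrays for 6 of 9, against 56.4% of all genes. Cry1, Nr1d1, Dbp and Arntl were lower on both, 4 of 9 against 27.0%. Bhlhe41 and Per2 were higher on both, 2 of 9 against 29.4%.

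The promoters of the genes that were called, Bhlhe41 and Per2, are shown with those of the paralog Bhlhe40 and of Arntl, the activator upstream of them. Each line holds the 250 bases before the transcript start in RefSeq on build GRCr8, on the gene's strand, with motif matches in capitals. These are chr4:180569356-180569605 on the minus strand for Bhlhe41, chr9:99496994-99497243 on the minus strand for Per2, chr4:143174200-143174449 on the plus strand for Bhlhe40 and chr1:176766078-176766327 on the plus strand for Arntl.
Bhlhe41: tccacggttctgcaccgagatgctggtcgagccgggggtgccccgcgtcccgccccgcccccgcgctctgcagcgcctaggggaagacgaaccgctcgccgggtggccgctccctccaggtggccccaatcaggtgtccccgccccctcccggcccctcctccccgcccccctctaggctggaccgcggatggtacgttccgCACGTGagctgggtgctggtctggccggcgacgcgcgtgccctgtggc
Per2: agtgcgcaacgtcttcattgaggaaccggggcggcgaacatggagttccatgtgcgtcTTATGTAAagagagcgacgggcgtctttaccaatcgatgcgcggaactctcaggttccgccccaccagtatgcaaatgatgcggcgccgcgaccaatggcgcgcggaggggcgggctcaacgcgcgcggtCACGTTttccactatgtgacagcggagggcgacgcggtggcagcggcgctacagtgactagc
Bhlhe40: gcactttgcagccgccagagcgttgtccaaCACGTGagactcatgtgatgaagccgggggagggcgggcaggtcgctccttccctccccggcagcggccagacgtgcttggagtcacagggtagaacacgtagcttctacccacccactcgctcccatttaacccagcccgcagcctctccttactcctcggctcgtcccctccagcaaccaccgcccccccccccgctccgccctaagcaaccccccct
Arntl: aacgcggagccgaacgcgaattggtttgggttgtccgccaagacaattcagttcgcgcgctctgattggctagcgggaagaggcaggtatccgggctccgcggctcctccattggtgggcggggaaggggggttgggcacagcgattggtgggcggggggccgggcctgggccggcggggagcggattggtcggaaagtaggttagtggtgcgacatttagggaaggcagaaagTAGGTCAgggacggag

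Windows from 250 bases before to 50 bases after the start were searched on both strands for the E-box CACGTG, the related E-prime box CACGTT, the D-box TTATGTAA and its variant TTACGTAA, the core TAGGTCA bound by ROR and REV-ERB receptors, the cAMP element TGACGTCA and the sterol element TCACNCCAC. Bhlhe41 held an E-box whose first base lies 48 bases before the start, and Bhlhe40 one at 220 bases before it. Per2 held an E-prime box at 62 bases and a D-box at 192 bases before the start. Arntl held the ROR core at 16 bases before it, and Nr1d1 an E-prime box. Of the 9 members with a window, 2 held the E-box, against 6.42% of 33469 windows, and 2 the E-prime box, against 4.83%. The windows with either box held 72.7% G and C for Bhlhe41, 65.7% for Bhlhe40, 64.7% for Per2 and 59% for Nr1d1. The median over all windows was 51.7%, and the shares were not matched for this. The D-box was in 0.893% of all windows, its variant in 0.120%, the ROR core in 2.63%, the cAMP element in 1.83% and the sterol element in 1.12%. The E-box was thus present both in Bhlhe41, which rose, and in Bhlhe40, which was not called. A match describes letters only, and no match says only that the letters are not in the window. Cry1 is named only.

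Of 21 further clock genes listed, 15 were tested, with a median log2 ratio of -0.0048, and 1 of them was called, higher. That gene was Timeless (0.51 ± 0.11, SD, n = 2 arrays; limma adjusted p = 0.000161), which in mammals acts mainly at replication forks. The BMAL1 partner genes were lower on both arrays without passing: Clock had a log2 ratio of -0.11 on array 1 and -0.27 on array 2 (adjusted p = 0.355). Npas2, which can replace Clock, had -0.22 and -0.33 (adjusted p = 0.0838), while its second kept probe averaged -0.02. Npas2 passed in limma with an intensity trend in the prior, on the offset-corrected (adjusted p = 0.0276) and the deposited ratio (0.00213). Cry2 (0.055 ± 0.072), Tef (-0.051 ± 0.070), Nfil3 (-0.10 ± 0.055) and Rora (-0.028 ± 0.036) were not called, and Hlf is not among the gene names used here.

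Among 18 tested liver genes under clock control, 3 were called higher and 2 lower, with a median log2 ratio of -0.13. Wee1, a kinase that delays mitosis and whose promoter is bound by BMAL1 and CLOCK, rose by 0.66 ± 0.035 (SD, n = 2 arrays; limma adjusted p = 1.01e-06), although its second probe averaged 0.16. The pyruvate dehydrogenase kinase Pdk4 rose by 0.33 ± 0.225 with a second probe at 0.08, a call lost with an offset of 16 (adjusted p = 0.0832), without the filter on dim probes (0.0652) and when probes were averaged (0.244). The glycogen synthase Gys2 (-0.61 ± 0.15) and the xenobiotic receptor Nr1i3, also called CAR (-0.47 ± 0.030), fell.

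The lists that follow had median log2 ratios from 0.036 to 0.14. Of 14 glucocorticoid-responsive genes, 4 rose and 0 fell, with a median of 0.10: Cebpd (0.78 ± 0.087), a transcription factor, Zbtb16 (0.62 ± 0.069), Tat (0.57 ± 0.13), a tyrosine-degrading enzyme, and the kinase Sgk1 (0.37 ± 0.057). Zbtb16 had 3 further probes that averaged 0.01, 0.23 and 0.74. The rest of that list was not called. Mt1a (0.275), Klf9 (0.27), Mt2A (0.12) and Fkbp5 (0.079) lay above 0. Dusp1 (-0.27), Tsc22d3 (-0.20), Pck1 (-0.15), Tdo2 (-0.135), Errfi1 (-0.11) and Sds (-0.013) lay below it. The summed normalized level of the list was 138400 and 144600 in choline-deficient liver, against 145200 and 151300 in control liver. That sum is weighted towards the brightest gene, Errfi1, which was not called. Its log2 levels were 16.34 and 16.45 in choline-deficient liver, against 16.46 and 16.55 in control liver. Of 9 temperature-responsive genes, 2 rose and 0 fell, with a median of 0.14. These were the heat shock proteins Hspa1b (1.35 ± 0.013, limma adjusted p = 3.25e-17), which had the largest ratio of that list, and Hsp90aa1 (0.44 ± 0.26). The further kept probes of Hsp90aa1 averaged 0.34, 0.36, 0.33 and 0.10. Of 14 hypoxia-inducible genes tested, 1 rose and 0 fell, with a median of 0.088, and that gene was Adm (0.46 ± 0.14), a vasodilator peptide. Of 13 tested SREBP, LXR, HIF and E-box factors and targets, 3 rose and 0 fell, with a median of 0.036. Insig1 (2.11 ± 0.11) and Fasn (0.96 ± 0.21) are targets of SREBP, and Srebf1 (0.30 ± 0.091), which encodes that factor, lost its call with an offset of 16 (adjusted p = 0.105), without the filter on dim probes (0.102) and with an intensity trend (0.169). Over all 6 lists, 14 genes rose and 2 fell. These counts and those of each list stand beside 4.37% higher and 4.25% lower over all genes tested.

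**Figure D3:**
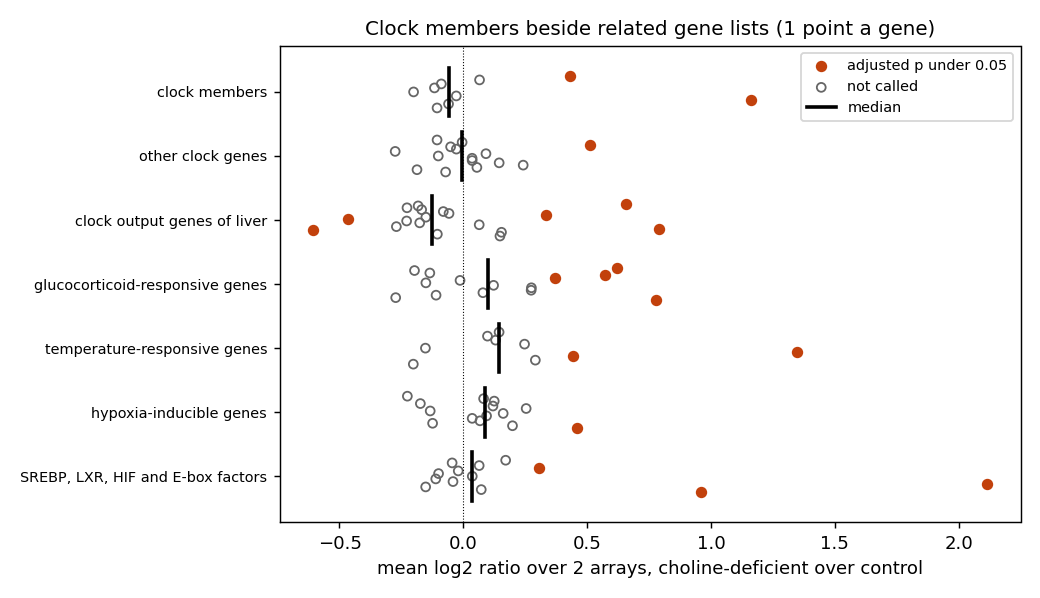
Mean log2 ratio of choline-deficient over control over 2 arrays (horizontal axis), 1 point per gene, for the 9 clock members and 6 related lists; filled points passed limma's test at an adjusted p of 0.05 and black bars are medians. The medians run from -0.13 to 0.14, while Bhlhe41, Hspa1b and Insig1 lie above 1.

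Macrophage markers were set beside Bhlhe41 and Per2, since other liver cells also express clock genes. Of 8 macrophage markers, 2 rose, Marco (0.91 ± 0.13) and Lyz2 (0.69 ± 0.24), and 0 fell, with a median log2 ratio of 0.032. Their summed normalized level was 28580 and 30280 in choline-deficient liver, against 33410 and 30980 in control liver. That sum is weighted towards the brightest marker, Clec4f, and gives no direction for the rest. Clec4f itself had log2 levels of 14.0 and 14.19 in choline-deficient liver, against 14.46 and 14.32 in control liver. Of the 8 markers, 6 did not pass. These were Cd68 (0.16), Csf1r (0.12), Cd163 (-0.058), Adgre1 (-0.086), C1qa (-0.21) and Clec4f (-0.29), so that 4 of the 8 had a mean log2 ratio above 0 and 4 below it. All 8 were well above background in both diets. Of the 5 cholangiocyte markers tested, 1 rose, Spp1 (1.52 ± 0.15), and the median log2 ratio of the list was 0.041. Epcam (0.27), Sox9 (0.041), Krt19 (-0.024) and Cftr (-0.092) were not called. The summed level of the list, 2175 and 1931 in choline-deficient liver against 1339 and 1225 in control liver, includes Spp1, whose own log2 levels were 10.19 and 9.88 in choline-deficient liver, against 8.57 and 8.47 in control liver. Among tested markers of other types, 2 of 6 stellate markers rose, and 1 of 6 endothelial, 1 of 3 lymphocyte and 1 of 3 erythroid markers fell. Of the hepatocyte markers, 1 rose and 2 fell. The part of these cells in the clock gene values was not tested.

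**Figure D4:**
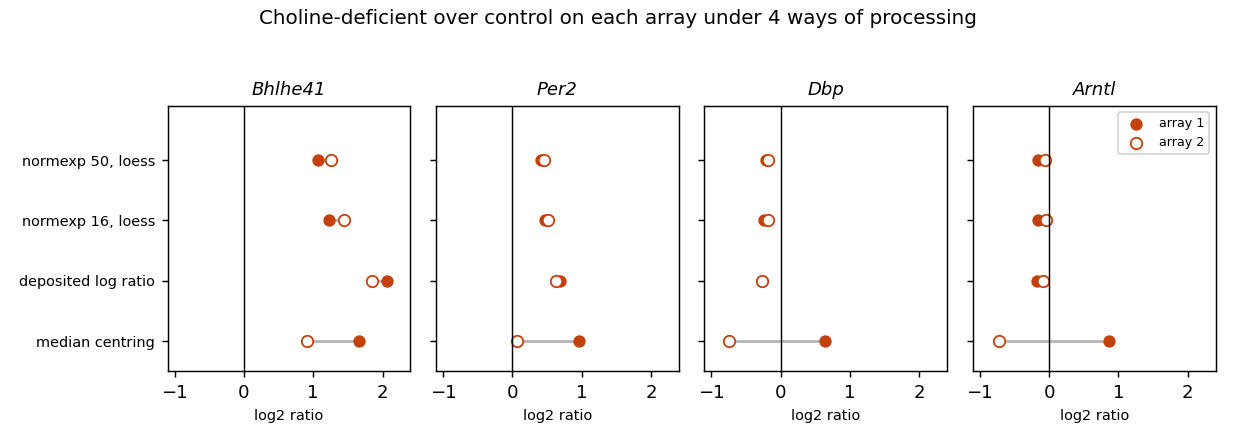
Log2 ratio of choline-deficient over control on array 1 (filled) and array 2 (open) for Bhlhe41, Per2, Dbp and Arntl under 4 ways of processing. Bhlhe41 and Per2 lie above 0 in all 8 readings shown for each; Dbp and Arntl take opposite signs on the arrays under median centring.

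Per-array readings of the called genes held their sign under each of these 4 treatments. Under median centring, which leaves the bend of dye against brightness in place, the log2 ratios were 1.66 and 0.90 for Bhlhe41 and 0.96 and 0.073 for Per2, and Dbp stood at 0.64 and -0.75. In that setting the median over all genes tested was 0.65 on array 1 and -0.41 on array 2. There 0 genes passed in limma, with 19 at an unadjusted p under 0.05.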

How the data were processed

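For each of 2 arrays the deposited file gives the spot and local background intensity in both dyes, read with Agilent Feature Extraction 9.5.3.1 per the file headers (9.5 per the submitters' processing notes), with probe coordinates on rn4. Their deposited log10 ratio of Cy5 over Cy3 follows detrended background subtraction and lowess dye normalization, and the deposited p-value comes from an error model within 1 array, both per the file headers. The deposited series table equalled that log10 ratio within 1% in 45018 of 45018 rows on both arrays and was used for nothing else.

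Intensities were corrected with limma 3.58.1 in R 4.3.3 (normexp, offset 50, on mean signal and median background), which draws ratios of dim spots towards 0, and log2 ratios were normalized by loess with control spots at weight 0. Outlier-flagged spots (249 and 226) were left out. Probes well above background on both arrays in at least 1 diet were kept (22383), and the brightest stood for a gene. Levels in each diet were scaled between arrays by A-quantiles. Ratios turned to choline-deficient over control were tested against 0 (lmFit and eBayes, two-sided, 1 residual and 63.5 prior degrees of freedom, Benjamini-Hochberg over all genes), so the spread was estimated almost wholly from other genes. The test was checked on simulated data with errors drawn from the differences between the 2 arrays, which cannot check variation between rats. Named genes are all 10 members, up to 6 called genes of each list by size and the core clock genes of the first list. The macrophage, hepatocyte and cholangiocyte markers and the uncalled glucocorticoid-responsive genes were named after their values were seen. A called gene of the lists is counted but not reported here by name. The members and lists were chosen with earlier results of these data known. No gene is named for a like pattern, since 2 arrays of 1 contrast give none. RefSeq sequences and symbols are of GRCr8; the accessions of 9 members matched a current symbol. The alternatives are given in the closing section.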

Additional observations from a re-analysis of the deposited data

How the results depend on the processing

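Bhlhe41 and Per2 stayed higher under every alternative tried, and both calls remained with an offset of 16, without the filter on dim probes, with probes averaged and with an intensity trend in the prior. With the authors' deposited log ratio, limma called 0 members higher and 0 genes in either direction, also 0 in the 6 lists, with Bhlhe41 at 1.96 (adjusted p = 0.193) and Per2 at 0.66 (adjusted p = 0.272). With median centring it called 0 members and 0 genes in either direction, also 0 in the lists, with Bhlhe41 at 1.28 and Per2 at 0.52 (adjusted p = 1 for each), and Bhlhe40 (0.10), Cry1 (0.11), Nr1d2 (0.088), Arntl (0.070) and Nfil3 (0.033) turned above 0. The deposited log ratio with an intensity trend, added after seeing the data, called 1146 genes higher and 1215 lower, Bhlhe41 and Per2 among the first, and 1 member lower, Dbp (-0.265, adjusted p = 0.0464), and 6 list genes lower. The intensity trend on the offset-corrected signals called 4 list genes lower, against 2. Cry2 was at -0.072 by the deposited ratio under either prior, against 0.055.

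Of 22 list genes followed one by one, 16 were called to begin with, and the rest were core clock genes without a call. All 16 lost their call with the deposited ratio, and all 16 with median centring. Without either array there is no test, and the values were 1.07 to 1.25 for Bhlhe41 and 0.41 to 0.45 for Per2. The ratio within each array already pairs the diets, and no further replicate block was fitted. Dim probes limit Per3, for which no level was measured in either diet.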
